A study of Mus musculus with 18 samples.

Results

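The genes described here are 10 targets and feedback regulators of the Wnt pathway: Axin2, Lgr5, Nkd1, Tbx3, Ctnnbip1, Rnf43, Znrf3, Sp5, Tcf7l2 and Lect2. They were taken from a list of gene symbols and matched to Ensembl mouse gene identifiers, giving 10 of the 28030 genes in the count table. All 10 passed the filter on low counts, as did 12477 genes in all. The list was drawn up with earlier results of these data in view. Which measured values they were chosen by is not recorded; differences between zones and the fasting response of Ctnnbip1 may have been among them, so the differences between zones of all 10 genes, and the difference of Ctnnbip1 between the fed and 24 h states, are given as descriptions with no test.

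RNA was measured in hepatocytes of male wild-type C57BL/6J mice aged 12 weeks and kept on normal chow. Digitonin, a detergent that permeabilises cells of 1 side of the lobule, was used to obtain pericentral cells, near the central vein, or periportal cells, near the portal triad. For 3 days all mice went through a 16 h overnight fast and 8 h of daytime feeding. Fed mice were killed at clock hour 13, after 4 h of food and 20% sucrose water. In the fasted groups food and sucrose were then withdrawn for 8 h (killed at clock hour 21) or 24 h (killed at clock hour 13 of the next day). Fasting for 8 h thus also comes with another clock hour than the fed and the 24 h states. Comparisons of 8 h with either state cannot tell fasting time from clock hour. The 2 zones and 3 states make 6 groups of 3 libraries, 18 in all. The labels do not say whether the libraries of a group, or of the 2 zones, came from separate mice, so the p-values measure only the spread between these libraries. No group is a knockout, so no targeted gene checks the labels.

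In the canonical Wnt pathway, secreted Wnt proteins bind Frizzled receptors with the co-receptors Lrp5 and Lrp6, which stops a destruction complex built on Axin from degrading beta-catenin. Beta-catenin then enters the nucleus and activates genes together with TCF/LEF factors. Many of these targets feed back on the pathway. In the liver, endothelial cells of the central vein release Wnt2, Wnt9b and the R-spondin Rspo3, and the hepatocytes around them keep a pericentral programme that includes Glul and Cyp2e1.

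The libraries held between 18359911 and 26384358 estimated counts. Levels are given as CPM (counts scaled to a fixed library total, with the trimmed mean of M-values as scaling), as mean ± SD with n = 3. A hepatocyte marker list of 6 genes, led by Alb, summed to between 60503 and 190707 CPM in every library, and all 18 libraries expressed it. Lists for other liver cells were far lower: 8 endothelial markers summed to 2.97 to 30.8 CPM and 7 stellate cell and fibroblast markers to 0.901 to 17.4 CPM. The 6 cholangiocyte markers summed to 16.5 to 44.2 CPM, mostly from Krt7 (11.1 to 20.2 CPM) and Spp1 (5.39 to 25.1 CPM), which had counts in every library, while Epcam had none in any. Pericentral 24 h replicate 2 stood apart from its group: it held 111 CPM of Glul, glutamine synthetase, against 928 and 707 CPM in replicates 1 and 3. The 24 h differences of the 10 genes between zones, and the pericentral calls at 24 h, are therefore given with and without it. In such bulk libraries, fewer cells of a type and less RNA per cell cannot be told apart.

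Promoters are shown for 4 of the genes, because TCF/LEF factors act through short DNA motifs near their targets and the zone pattern of these 4 spans both directions. The letters are the 250 bases before the RefSeq transcription start on build GRCm38.p6, written 5′ to 3′ on the gene's own strand. The search looked for CTTTGAT on either strand (ATCAAAG when read on the other), a core TCF/LEF sequence, and a match is in capitals. The window of Sp5 lies at chr2:70474673-70474922 on the plus strand and that of Lect2 at chr13:56548539-56548788 on the minus strand. That of Axin2 lies at chr11:108920099-108920348 and that of Ctnnbip1 at chr4:149517991-149518240, both on the plus strand.
Sp5: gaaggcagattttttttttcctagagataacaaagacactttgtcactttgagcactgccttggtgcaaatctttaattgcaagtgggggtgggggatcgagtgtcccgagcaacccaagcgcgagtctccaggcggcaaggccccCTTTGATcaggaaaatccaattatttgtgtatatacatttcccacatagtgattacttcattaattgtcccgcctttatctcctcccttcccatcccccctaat
Lect2: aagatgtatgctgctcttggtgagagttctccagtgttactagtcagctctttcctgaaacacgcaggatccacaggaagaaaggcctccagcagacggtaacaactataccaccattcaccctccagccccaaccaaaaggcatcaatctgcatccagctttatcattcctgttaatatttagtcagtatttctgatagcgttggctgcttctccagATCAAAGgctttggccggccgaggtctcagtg
Axin2: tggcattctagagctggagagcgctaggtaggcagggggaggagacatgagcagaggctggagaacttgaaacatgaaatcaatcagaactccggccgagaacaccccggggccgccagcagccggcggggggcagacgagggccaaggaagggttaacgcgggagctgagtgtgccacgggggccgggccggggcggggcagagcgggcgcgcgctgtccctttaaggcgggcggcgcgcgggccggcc
Ctnnbip1: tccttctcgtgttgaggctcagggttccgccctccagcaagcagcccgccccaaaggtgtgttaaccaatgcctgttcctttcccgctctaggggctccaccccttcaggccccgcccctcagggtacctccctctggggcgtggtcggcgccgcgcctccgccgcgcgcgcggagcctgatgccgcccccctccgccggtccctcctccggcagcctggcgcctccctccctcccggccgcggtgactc
RefSeq entries were matched for 7 of the 10 genes, with 10 promoters among them, and 2 of these held the motif. In Sp5 the match began 104 bases before the start, in Lect2 it began 32 bases before it. Across all 32851 RefSeq promoters of the same length, 1053 (3.21%) held it. A match describes the letters of the window and shows no binding, and a window without it says nothing about TCF/LEF factors elsewhere at the gene.

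Between zones, 8 of the 10 genes were lower in periportal than in pericentral hepatocytes in each of the 3 states, and 2, Ctnnbip1 and Tcf7l2, were higher. In fed mice the 3 periportal libraries all lay below the 3 pericentral ones for 7 genes (13.9% of all genes tested) and all above them for 2 (14.4%). At 8 h these counts were 8 (11.7%) and 2 (12.1%), and at 24 h they were 7 (11.7%) and 1 (10.5%). Between 4.17% and 8.01% of all genes tested were called between zones, at an adjusted p under 0.05 in edgeR: 8.01% fed, 7.14% after 8 h and 4.17% after 24 h. The median log2 difference over the 10 genes, periportal over pericentral, was -2.69 fed, -2.62 after 8 h and -2.54 after 24 h, and the median of all genes tested was 0.00, 0.01 and 0.00. Without pericentral 24 h replicate 2 the 24 h median was -2.96, with 8 genes below and 1 above without overlap. Since the list was made with zone results known, nothing is read from these counts.

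**Figure D1:**
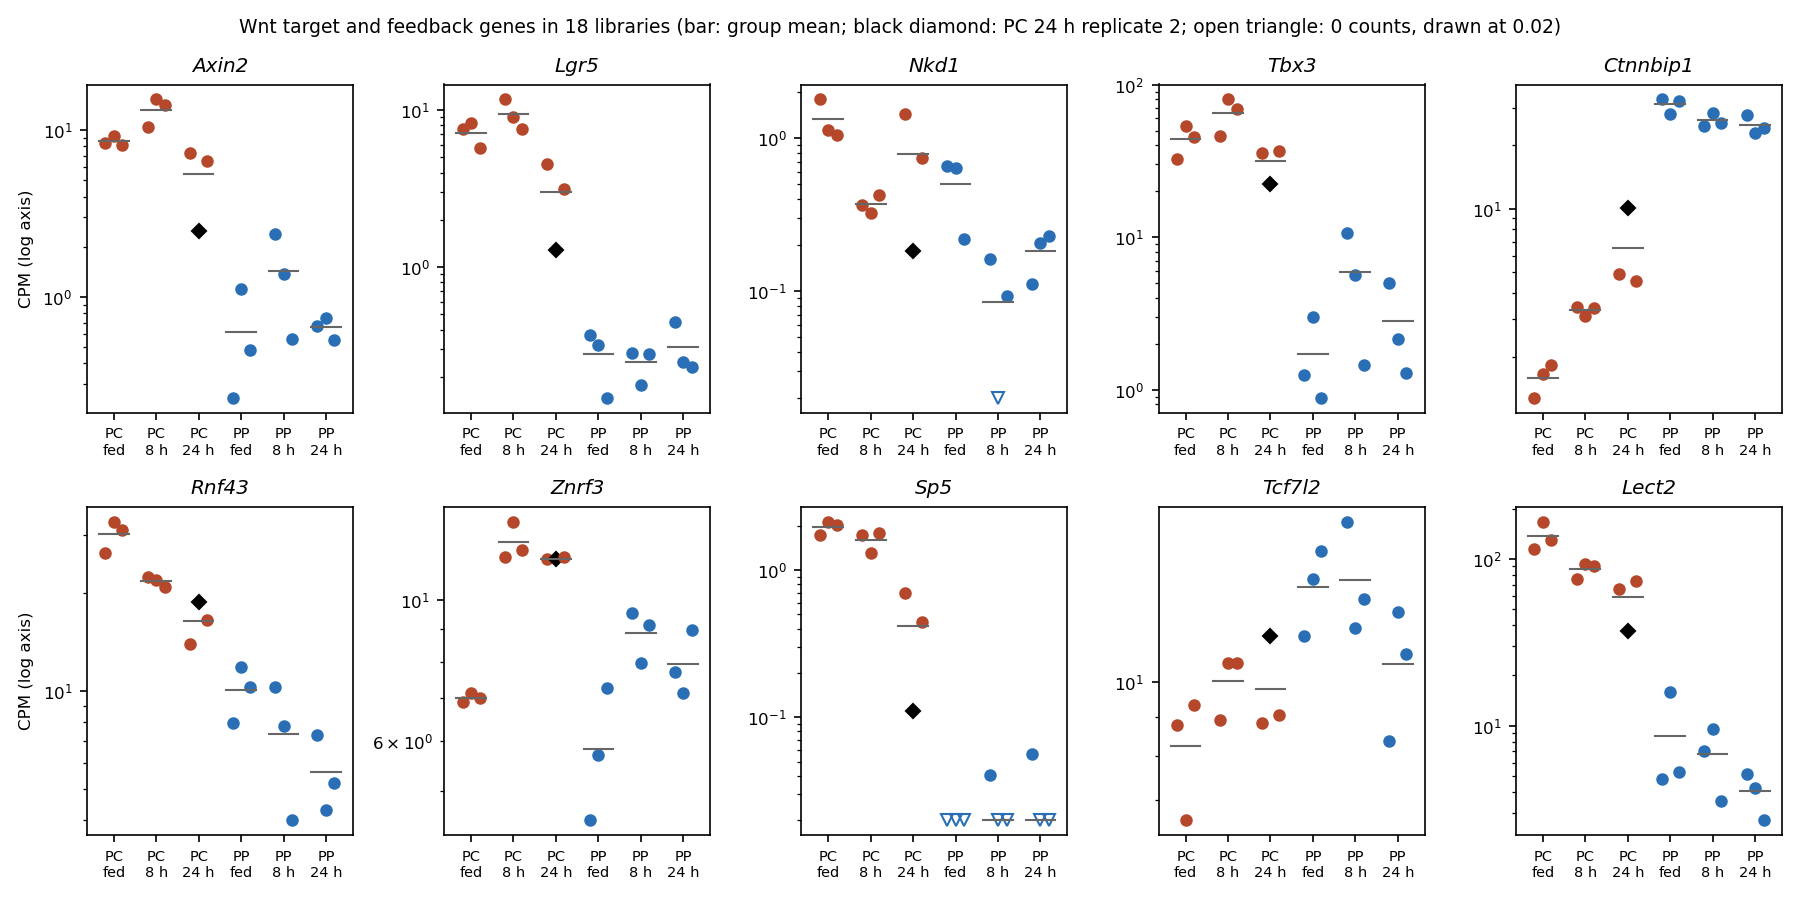
CPM (log axis) of each of the 10 genes in the 18 libraries; red points are pericentral (PC), blue are periportal (PP), bars are group means, the black diamond is pericentral 24 h replicate 2 and open triangles at 0.02 stand for 0 counts. For Axin2, Lgr5, Tbx3, Rnf43, Sp5 and Lect2 all 9 pericentral points lie above all 9 periportal ones, Ctnnbip1 shows the reverse, and the diamond is the lowest of its group for Axin2, Lgr5, Nkd1, Tbx3, Sp5 and Lect2.

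At the cell surface, Lgr5 is a receptor for R-spondins that strengthens Wnt signalling and marks stem cells in several tissues. Its gene lies on chromosome 10 (115450311 to 115587780, minus strand, GRCm38). In pericentral replicates 1 to 3 it stood at 7.57, 8.27 and 5.76 CPM fed, 11.7, 9.07 and 7.62 CPM after 8 h and 4.57, 1.29 and 3.16 CPM after 24 h. In periportal replicates it ran from 0.147 to 0.447 CPM across all 9. The 9 pericentral libraries thus all lay above the 9 periportal ones, and the 24 h pericentral libraries all lay below the fed and the 8 h ones. Lgr5 was 25.6-fold lower in periportal cells in fed mice (log2 -4.68, SE 0.43), 37.5-fold lower at 8 h (-5.23, SE 0.45) and 9.80-fold lower at 24 h (-3.29, SE 0.45, or -3.67 without pericentral 24 h replicate 2).

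Lgr5 fell in pericentral hepatocytes at 24 h, from 7.20 ± 1.29 to 3.01 ± 1.65 CPM, 2.40-fold (log2 -1.26, SE 0.34, edgeR quasi-likelihood adjusted p = 0.0137), and it fell 3.15-fold between 8 h and 24 h (log2 -1.65, SE 0.34, edgeR adjusted p = 0.00678). Without pericentral 24 h replicate 2 both calls stood, at log2 -0.89 (edgeR adjusted p = 0.0393) and -1.28 (0.0165). Both were lost when only the groups compared were fitted (edgeR adjusted p = 0.0625 and 0.0673). In periportal cells the 3 comparisons of states gave log2 differences between -0.16 and 0.28 (edgeR adjusted p from 0.842 to 0.914), on 17 to 21 counts a group.

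Rnf43 and Znrf3 are related membrane ubiquitin ligases that remove Frizzled receptors from the surface, and R-spondins bound to Lgr receptors clear them. Both lie on chromosome 11, Rnf43 at 87662722 to 87735539 and Znrf3 at 5276324 to 5444847. Rnf43 was at 26.5, 33.0 and 31.2 CPM in fed pericentral replicates, 22.4, 21.8 and 20.8 CPM after 8 h and 13.9, 18.7 and 16.5 CPM after 24 h. Periportal replicates held 7.96, 11.8 and 10.3 CPM fed, 10.3, 7.82 and 4.01 CPM after 8 h and 7.32, 4.32 and 5.2 CPM after 24 h. The 3 pericentral groups did not overlap each other, and every pericentral library lay above every periportal one. The zone difference of Rnf43 was 3.01-fold in fed mice (log2 -1.59, SE 0.25), 2.93-fold at 8 h and 2.94-fold at 24 h (log2 -1.55, or -1.45 without pericentral 24 h replicate 2), all lower in periportal cells.

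Rnf43 fell at 24 h in both zones. The fall was 1.85-fold in pericentral cells (log2 -0.89, SE 0.24, edgeR adjusted p = 0.0163) and 1.80-fold in periportal cells (log2 -0.85, SE 0.26, edgeR adjusted p = 0.0332), and in each zone the 3 fasted libraries lay below the 3 fed ones. The pericentral call was lost without pericentral fed replicate 2 (edgeR adjusted p = 0.0534), 24 h replicate 1 (0.0627) or 24 h replicate 3 (0.0501), and stood without 24 h replicate 2 (log2 -0.99, adjusted p = 0.0255). The periportal call was lost without fed replicate 2 (edgeR adjusted p = 0.112), fed replicate 3 (0.0752), 24 h replicate 2 (0.135) or 24 h replicate 3 (0.106), and without the filter on low counts (0.0547). At 8 h the differences were log2 -0.48 in pericentral cells (edgeR adjusted p = 0.221) and -0.44 in periportal cells (0.293). The difference between zones of the 24 h change was log2 0.04 (SE 0.36), or 0.14 without pericentral 24 h replicate 2.

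Znrf3 took the other course, higher with fasting. Fed pericentral replicates held 6.91, 7.13 and 7.01 CPM, those at 8 h 11.7, 13.3 and 12.0 CPM and those at 24 h 11.6, 11.6 and 11.7 CPM. Periportal replicates held 4.50, 5.71 and 7.27 CPM fed, 9.53, 7.96 and 9.13 CPM after 8 h and 7.71, 7.15 and 8.97 CPM after 24 h. All fasted pericentral libraries lay above all fed ones, whereas in periportal cells the lowest 24 h library lay below the highest fed one. Znrf3 rose in pericentral cells 1.76-fold at 8 h (log2 0.81, SE 0.15, edgeR adjusted p = 0.00114) and 1.66-fold at 24 h (log2 0.73, SE 0.15, edgeR adjusted p = 0.00185), and both calls stood under all 26 alternatives. It rose in periportal cells 1.52-fold at 8 h (log2 0.60, SE 0.15, edgeR adjusted p = 0.0111). That 8 h call was lost without periportal fed replicate 1 (0.0592) or when only the groups compared were fitted (0.0857). The periportal difference at 24 h was smaller (log2 0.44, SE 0.15, edgeR adjusted p = 0.0453). That call was lost without any 1 of 14 libraries (edgeR adjusted p from 0.0526 to 0.209), the exceptions being periportal fed replicate 3, 8 h replicates 1 and 2 and 24 h replicate 2. It was also lost without the filter (edgeR, 0.0799), with only the groups compared (edgeR, 0.149) and in limma-voom (0.0515). Its zone difference was the smallest among the 8 genes lower in periportal cells: log2 -0.26 (SE 0.15) fed, -0.48 (SE 0.14) at 8 h and -0.55 (SE 0.15) at 24 h, the last being -0.55 also without pericentral 24 h replicate 2.

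**Figure D2:**
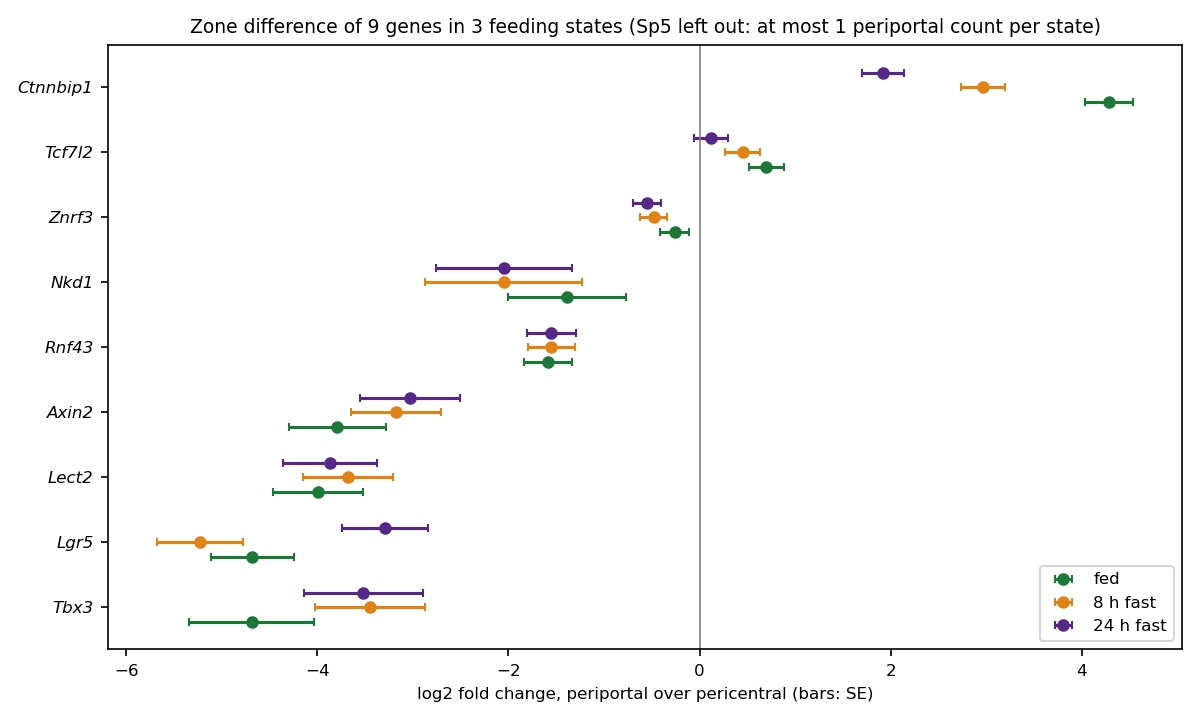
Log2 fold change of periportal over pericentral hepatocytes (x axis, bars are SE) for 9 of the genes in fed mice, after 8 h and after 24 h of fasting; Sp5 is left out because it had at most 1 periportal count per state. The genes other than Ctnnbip1 and Tcf7l2 sit left of 0 in every state, and Ctnnbip1 moves from 4.29 in fed mice to 1.92 at 24 h.

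Inside the cell, Axin2 is a scaffold of the destruction complex and a widely used readout of canonical Wnt signalling. Its gene lies on chromosome 11 (108920349 to 108950783, plus strand), just downstream of the promoter printed above. Pericentral replicates held 8.40, 9.21 and 8.14 CPM fed, 10.4, 15.3 and 14.1 CPM after 8 h and 7.31, 2.50 and 6.52 CPM after 24 h. Periportal replicates held 0.248, 1.12 and 0.478 CPM fed, 2.38, 1.38 and 0.559 CPM after 8 h and 0.671, 0.748 and 0.552 CPM after 24 h. All pericentral libraries lay above all periportal ones, although by little between pericentral 24 h replicate 2 (2.50 CPM) and periportal 8 h replicate 1 (2.38 CPM). Without that pericentral library the lowest pericentral value was 6.52 CPM.

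Axin2 was 13.9-fold lower in periportal cells in fed mice (log2 -3.79, SE 0.51), 9.09-fold lower at 8 h (-3.18, SE 0.47) and 8.18-fold lower at 24 h (-3.03, SE 0.52). These were -4.53 fed without periportal fed replicate 2, -3.77 at 8 h without periportal 8 h replicate 1 and -3.38 at 24 h without pericentral 24 h replicate 2. None of its 6 comparisons of states was called. The pericentral groups did not overlap, highest at 8 h and lowest at 24 h, and the 24 h to 8 h difference of log2 -1.29 (SE 0.42) had an edgeR adjusted p = 0.0652, with DESeq2 (0.0270) and limma-voom (0.00966) calling it. Without pericentral 24 h replicate 2 that difference was -0.94 (edgeR adjusted p = 0.186), and the 24 h to fed difference moved from -0.66 (0.287) to -0.31 (0.647).

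Nkd1 binds Dishevelled and dampens the signal, and it was the least abundant of the 10 genes per length in fed pericentral cells. It had 248 counts over all 18 libraries. Pericentral replicates held 1.80, 1.14 and 1.05 CPM fed, 0.369, 0.326 and 0.425 CPM after 8 h and 1.45, 0.184 and 0.741 CPM after 24 h. Periportal replicates held 0.660, 0.639 and 0.220 CPM fed, 0.162, 0 and 0.0932 CPM after 8 h and 0.112, 0.208 and 0.230 CPM after 24 h. In both zones the 8 h libraries lay below all fed ones. In periportal cells Nkd1 fell 5.55-fold at 8 h (log2 -2.47, SE 0.80, edgeR adjusted p = 0.0468), from 38 counts to 6. The call was lost without any 1 of 14 libraries (edgeR adjusted p from 0.0538 to 0.146), all but periportal fed replicate 3, periportal 8 h replicate 1 and pericentral 24 h replicates 1 and 2. It was also lost without the filter on low counts (edgeR, 0.0509) and in limma-voom (0.109). The pericentral difference at 8 h was log2 -1.82 (SE 0.64, edgeR adjusted p = 0.0687), and 3 of 25 alternatives called it. They were DESeq2 (adjusted p = 0.0393), edgeR on only the groups compared (0.0147) and edgeR without pericentral 24 h replicate 2 (0.0358). Between zones Nkd1 was lower in periportal cells by log2 -1.39 (SE 0.62) fed, -2.05 (SE 0.82) at 8 h and -2.05 (SE 0.71) at 24 h, and the zones overlapped at 24 h through pericentral replicate 2 (0.184 CPM). The 8 h value was -2.91 without periportal 8 h replicate 1. The 24 h value was -1.25 without pericentral 24 h replicate 1 and -2.53 without replicate 2.

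Ctnnbip1, also known as ICAT, binds beta-catenin and blocks its contact with TCF factors, and it had the larger difference of the 2 genes that were higher in periportal cells. It lies on chromosome 4 (149518236 to 149566437, plus strand). Periportal replicates held 32.8, 28.0 and 32.4 CPM fed, 24.6, 28.4 and 25.3 CPM after 8 h and 27.6, 22.7 and 24.1 CPM after 24 h. Pericentral replicates held 1.28, 1.65 and 1.83 CPM fed, 3.44, 3.12 and 3.40 CPM after 8 h and 4.92, 10.1 and 4.55 CPM after 24 h. The pericentral groups followed each other upward with no overlap, and all of them stayed below the lowest periportal library.

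Periportal Ctnnbip1 exceeded pericentral 19.6-fold in fed mice (log2 4.29, SE 0.25), 7.84-fold at 8 h (2.97, SE 0.23) and 3.77-fold at 24 h (1.92, SE 0.22, or 2.38 without pericentral 24 h replicate 2). Pericentral Ctnnbip1 rose 2.10-fold at 8 h over fed (log2 1.07, SE 0.26, edgeR adjusted p = 0.0105), a call lost without pericentral fed replicate 1 (0.0518). From 8 h to 24 h it rose 1.97-fold (log2 0.98, SE 0.23, edgeR adjusted p = 0.0142), a call lost without pericentral 8 h replicate 1 (0.0523), 8 h replicate 2 (0.0589) or 24 h replicate 2 (log2 0.51, 0.0536). That call was also lost when only the groups compared were fitted (edgeR adjusted p = 0.111). These comparisons share libraries with the fed to 24 h difference and together make it up. The gene may have been listed for that difference, so nothing is read from their p-values. From fed to 24 h the pericentral difference was log2 2.05 (SE 0.25), or 1.58 without 24 h replicate 2, and the periportal one -0.33 (SE 0.20). The zones thus differed in this change by log2 -2.38 (SE 0.32), or -1.91 without that library. At 8 h the zones differed in the change by -1.32 (SE 0.33).

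The pericentral difference in Ctnnbip1 ran beside that of periportal genes used to check the labels. The summed level of Cyp2f2, Hal, Gls2 and Sds in pericentral libraries was 278 to 456 CPM fed, 466 to 598 CPM at 8 h and 806 to 1793 CPM at 24 h, and in periportal libraries it was 3134 to 5413 CPM. The 1793 CPM was that of pericentral 24 h replicate 2, and the other 2 libraries of its group held 806 and 869 CPM. All 4 of these genes, chosen as periportal markers, were called higher in pericentral cells at 24 h than fed (edgeR), as were 10.8% of all genes. Their median log2 change was 1.92. Without that library all 4 were also called higher, with a median of 1.41. Their part in the Ctnnbip1 values was not tested.

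Among the nuclear factors, Tcf7l2 is a DNA-binding partner of beta-catenin present in hepatocytes of both zones. It ranged from 6.58 to 11.5 CPM over the 9 pericentral libraries and from 8.38 to 16.3 CPM over the 9 periportal ones. Its zone difference was log2 0.70 (SE 0.18) fed, 0.45 (SE 0.18) at 8 h and 0.12 (SE 0.18) at 24 h, higher in periportal cells, with overlap of the zones at 24 h. The 24 h value was 0.25 without pericentral 24 h replicate 2 and -0.02 without periportal 24 h replicate 2. None of its 6 comparisons of states was called, with log2 differences from -0.37 to 0.29 and edgeR adjusted p from 0.212 to 0.931.

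Sp5 encodes a zinc-finger repressor induced by beta-catenin, and nearly all of its counts came from pericentral libraries. The gene is short and has 2 exons on chromosome 2 (70474923 to 70477729). Fed pericentral replicates held 1.73, 2.13 and 2.02 CPM, 8 h ones 1.72, 1.30 and 1.78 CPM, and 24 h ones 0.703, 0.110 and 0.445 CPM. Of the 9 periportal libraries 7 had no count, and 8 h replicate 1 and 24 h replicate 1 had 1 count each. In fed mice pericentral Sp5 was 49.7-fold above a floor of 3 counts over the 3 periportal libraries, which held none. The exact 95% interval of the ratio, which also allows for the pericentral counting error, starts at 40.0-fold. The pooled ratio was 111 at 8 h (95% interval from the exact binomial (Clopper-Pearson) split of the counts, 19.5 to 4424) and 26.2 at 24 h (4.35 to 1068), intervals that cover counting error only. Without pericentral 24 h replicate 2 the 24 h ratio was 37.5 (6.19 to 1537).

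Sp5 fell in pericentral cells at 24 h, from 1.96 ± 0.207 CPM (156 counts) to 0.419 ± 0.297 CPM (30 counts). This was 4.66-fold (log2 -2.22, SE 0.55, edgeR adjusted p = 0.0102), with no overlap, and the call stood under all 25 alternatives that gave a value, including without 24 h replicate 2 (log2 -1.75, 0.0340). The fall from 8 h to 24 h was 3.81-fold (log2 -1.93, SE 0.56, edgeR adjusted p = 0.0411). It was lost without any 1 of 8 pericentral libraries, all but 24 h replicate 1 (edgeR adjusted p from 0.0589 to 0.121). That call was also lost when only the groups compared were fitted (edgeR adjusted p = 0.0791). In periportal cells all states were at or under the floor.

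Tbx3 is a T-box repressor and a pericentral target of beta-catenin, on chromosome 5 (119670669 to 119684724). Pericentral replicates held 32.7, 53.6 and 45.5 CPM fed, 45.9, 80.0 and 69.5 CPM after 8 h and 35.8, 22.2 and 36.6 CPM after 24 h. Periportal replicates held 1.24, 3.00 and 0.882 CPM fed, 10.7, 5.60 and 1.44 CPM after 8 h and 4.97, 2.16 and 1.29 CPM after 24 h. The periportal 8 h libraries spread widest, from 1.44 to 10.7 CPM, and overlapped both other periportal groups. Tbx3 was 25.8-fold lower in periportal cells fed (log2 -4.69, SE 0.65), 10.9-fold lower at 8 h (-3.45, SE 0.58) and 11.5-fold lower at 24 h (-3.52, SE 0.62, or -3.73 without pericentral 24 h replicate 2). These were -5.38 without periportal fed replicate 2, -4.20 without periportal 8 h replicate 1 and -4.18 without periportal 24 h replicate 1. None of its 6 comparisons of states was called. The widest of them, periportal 8 h against fed, was log2 1.81 (SE 0.65, edgeR adjusted p = 0.0831), which DESeq2 called (0.0291).

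Lect2 encodes a secreted protein made by hepatocytes and is a known target of beta-catenin in liver. It lies on chromosome 13 (56542464 to 56548502, minus strand). Pericentral replicates held 115, 167 and 129 CPM fed, 75.7, 92.7 and 90.8 CPM after 8 h and 66.2, 36.7 and 73.3 CPM after 24 h. Periportal replicates held 4.75, 15.9 and 5.25 CPM fed, 7.03, 9.60 and 3.54 CPM after 8 h and 5.14, 4.24 and 2.71 CPM after 24 h. The pericentral groups stepped down from fed to 8 h to 24 h with no overlap. Lect2 was 15.9-fold lower in periportal cells fed (log2 -3.99, SE 0.47), 12.8-fold lower at 8 h and 14.6-fold lower at 24 h (-3.87, or -4.12 without pericentral 24 h replicate 2). The fed value was -4.78 without periportal fed replicate 2. The pericentral difference between 24 h and fed was log2 -1.22 (SE 0.42) with an edgeR adjusted p = 0.0514, and 9 of 26 alternatives called it, among them DESeq2 (0.0402) and limma-voom (0.0105). Without pericentral 24 h replicate 2 it was -0.98 (edgeR adjusted p = 0.166).

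Among periportal libraries, the values of Tbx3, Rnf43, Lect2, Axin2 and Lgr5 were often highest where another pericentral RNA was. Cyp2e1, a pericentral cytochrome P450, stood at 373, 1206 and 325 CPM in fed periportal replicates, at 937, 766 and 351 CPM at 8 h and at 1826, 944 and 417 CPM at 24 h. The library with most Cyp2e1 in each group also had the most Tbx3 and Rnf43 in that group. It had the most Lect2 in the fed and 24 h groups and the most Axin2 in the fed and 8 h groups. Lgr5 was highest in that library at 8 h (7 counts) and 24 h (8 counts), and Nkd1 at 8 h (0.162 CPM). At 24 h Nkd1 was lowest (0.112 CPM) in periportal replicate 1, which held the most Cyp2e1. In fed libraries Nkd1 and Lgr5 were highest in replicate 1, not in the library with most Cyp2e1. Znrf3 and Tcf7l2 were highest in that library only at 8 h. In the 9 pericentral libraries Cyp2e1 ran from 7611 to 16062 CPM. The part of this RNA in the periportal values was not tested.

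The calls on the 10 genes can be set against those on all genes. In pericentral cells at 8 h against fed, 2 of 10 were called (13.8% of all genes tested), and 1 without pericentral fed replicate 1. At 24 h against fed, 4 of the 9 genes tested were called (21.8% of all genes), 1 up (10.8%) and 3 down (11.1%). At 24 h against 8 h, 3 of 10 were called (9.71% of all genes), and 1 without pericentral 8 h replicate 1, 8 h replicate 2 or 24 h replicate 2. The pericentral counts at 8 h against fed and at 24 h against 8 h include Ctnnbip1, which may have been listed for its fasting response. In periportal cells 2 of 10 were called at 8 h (14.4%), 2 of 9 at 24 h (19.6%) and 0 of 10 between 8 h and 24 h (7.46%). For that last comparison, edgeR gave 0 of the 10 an unadjusted p under 0.05, and DESeq2 and limma-voom also called 0. The periportal count at 8 h fell to 0 without periportal fed replicate 1, and that at 24 h fell to 0 without fed replicate 2 or 24 h replicate 3. Both periportal counts fell to 1 without most other libraries, through the Nkd1 and Znrf3 calls described above.

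**Figure D3:**
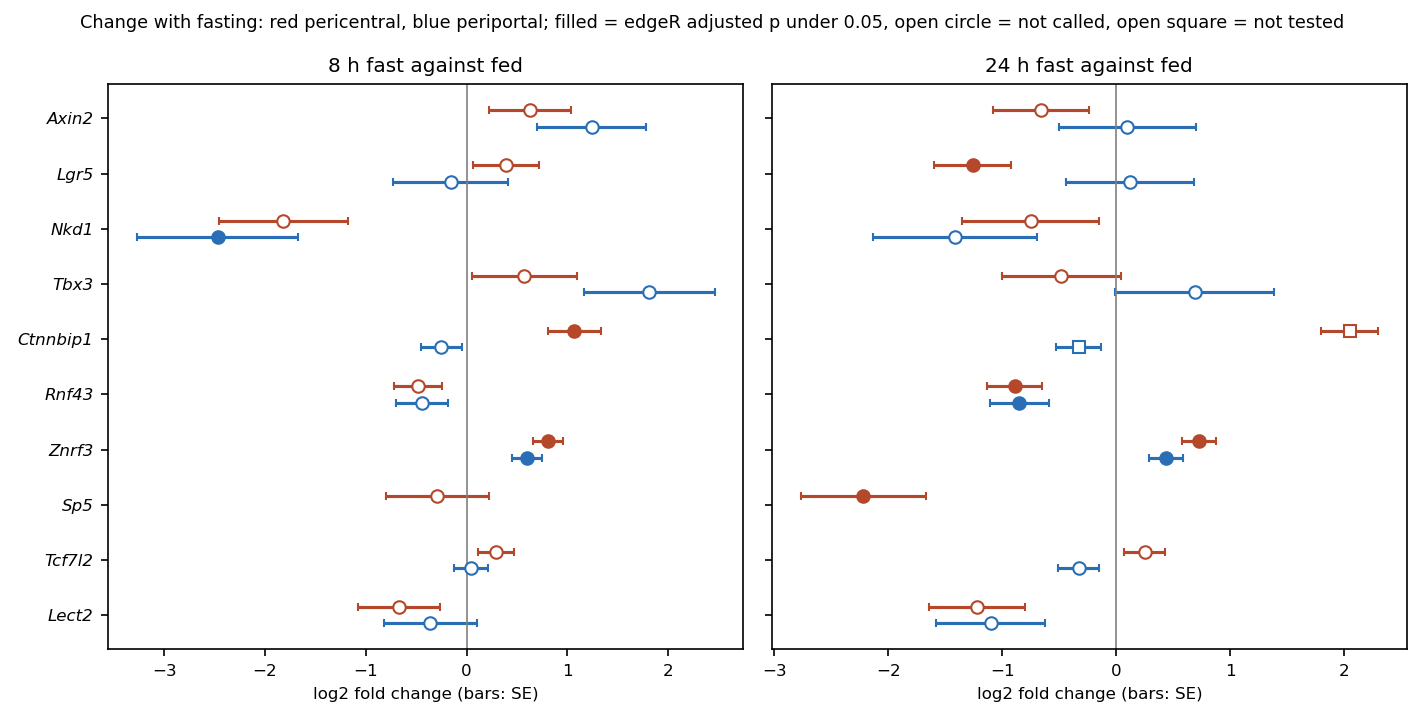
Log2 fold change against the fed state (x axis, bars are SE) after 8 h and 24 h of fasting, red for pericentral and blue for periportal hepatocytes; filled circles have an edgeR adjusted p under 0.05, open circles do not, and open squares (Ctnnbip1 at 24 h) were not tested. Periportal Sp5 is not drawn because it had at most 1 count per group, and Znrf3 has a filled point in all 4 zone and time combinations.

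Compared per kilobase of the longest principal transcript in GENCODE M21, which approximates length since several transcripts are summed, Lect2 was the most abundant of the genes in fed pericentral cells at 164 ± 32.1 CPM per kb. Tbx3 followed at 8.82 ± 2.12 and Rnf43 at 7.01 ± 0.779 CPM per kb, with overlapping libraries. Then came Tcf7l2 (2.58 ± 0.457) and Axin2 (2.01 ± 0.131), which also overlapped, and Lgr5 (1.53 ± 0.275), Znrf3 (1.11 ± 0.0175) and Sp5 (0.933 ± 0.0984 CPM per kb), which did not overlap their neighbours. Ctnnbip1 (0.593 ± 0.105) and Nkd1 (0.438 ± 0.135) were lowest and overlapped. In fed periportal cells Ctnnbip1 led at 11.6 ± 0.996 CPM per kb, with Lect2 next at 10.3 ± 7.52, a pair that overlapped, then Tcf7l2 at 4.19 ± 0.540 and Rnf43 at 2.32 ± 0.449. Sp5 was last, at 0.

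Pericentral 24 h replicate 2 had low values for most of the pericentral members, but not for all. It was sequenced as deeply as any library (26384358 counts, 15676 genes with a count). Against the mean of replicates 1 and 3 on the log2 CPM scale (prior count 2), it was lower by -2.07 for Nkd1, by -1.74 for Sp5, by -1.50 for Lgr5, by -1.44 for Axin2, by -0.92 for Lect2 and by -0.71 for Tbx3. Sp5 and Nkd1 rested on 3 and 5 counts in this library. Over all 12477 genes the same difference had a median of 0.01 and an SD of 0.57. Between 0.729% (Nkd1) and 5.67% (Tbx3) of all genes were as low as these 6.

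Ctnnbip1 was higher in this library by 1.08, a rise matched by 2.83% of all genes, so that its 10.1 CPM lay between the other pericentral 24 h libraries and the periportal 24 h mean of 24.8 CPM. The ligase genes did not follow the other pericentral members: Rnf43 differed by 0.30 and Znrf3 by -0.01, and Tcf7l2 differed by 0.36. Among 6 other pericentral genes, Slc1a2, a glutamate transporter, was lower by -4.80, Glul by -2.87 and Oat, ornithine aminotransferase, by -2.11. Cyp1a2 was lower by -1.04 and Cyp2e1 by -0.49, while Nr1i3 differed by 0.17. Of 6 other general Wnt targets, Tnfrsf19 differed by -1.22 and the rest were higher, by 0.12 to 1.86. The highest was Myc, named here after its values were seen, at 22.1 CPM against 6.33 and 5.73 CPM in replicates 1 and 3. The Wnt inhibitor Notum differed by -0.37 and the TCF factor Tcf7 by 0.03. Of the periportal genes, Cyp2f2 stood at 345, 793 and 322 CPM in replicates 1 to 3, Hal at 243, 466 and 196 CPM and Sds at 101, 215 and 94.8 CPM. In this library 8 endothelial markers summed to 7.43 CPM and 7 stellate cell and fibroblast markers to 5.44 CPM, each the median of its group. The 6 Kupffer cell and leukocyte markers summed to 4.60 CPM, the highest of its group, against 1.91 and 4.10 CPM in replicates 1 and 3. What part any of these had in the low values was not tested.

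**Figure D4:**
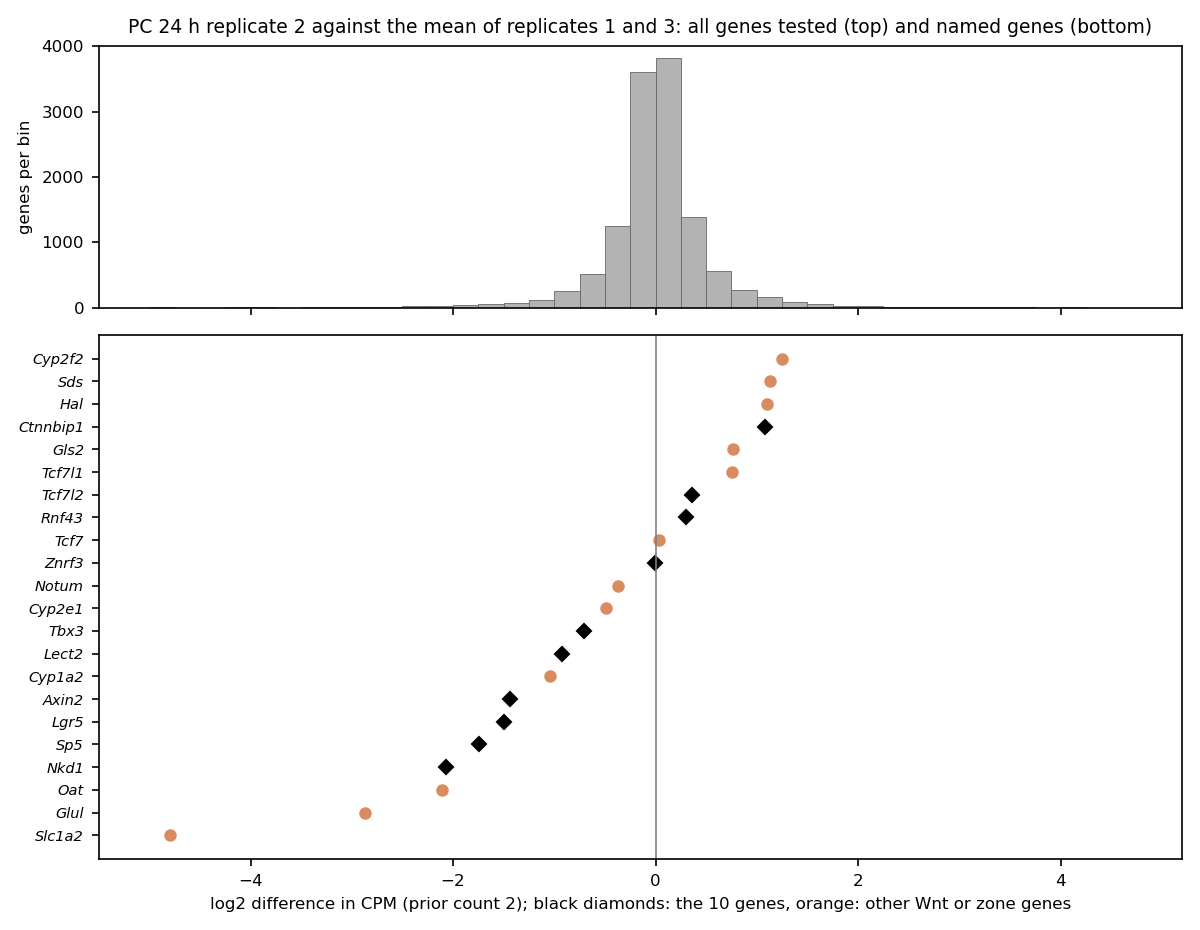
Log2 difference in CPM between pericentral 24 h replicate 2 and the mean of replicates 1 and 3 (x axis), as a histogram of all 12477 genes tested (top) and for the 10 genes (black diamonds) and other Wnt or zone genes (orange, bottom). Nkd1, Sp5, Lgr5 and Axin2 lie between -2.07 and -1.44, and Ctnnbip1 lies at 1.08 among the periportal genes Hal, Sds and Cyp2f2.

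The rest of the pathway was read from 7 lists of 79 genes, of which 77 were matched to the table and 57 passed the count filter. The lists were drawn up with earlier results of these data known, so their zone calls are no independent evidence, and zone differences are given below without p-values. Of the 57, 16 were called between zones in the fed state (28.1%, against 8.01% of all genes), 16 at 8 h (28.1%, against 7.14%) and 10 at 24 h (17.5%, against 4.17%). Those counts include 6, 6 and 4 of 6 pericentral genes whose direction the choice of list fixed. Of the other 51 genes, 10 were called in the fed state (5 higher, 5 lower on the periportal side), 10 at 8 h (5 and 5) and 6 at 24 h (3 and 3). Of the ligands, hepatocyte libraries held few reads from the genes that the central vein endothelium is known to use: 18 counts of Wnt2, 12 of Wnt9b and 8 of Rspo3 over all 18 libraries. Of the 5 ligand genes tested, Wnt9a was higher in periportal cells in fed mice by log2 1.94 (SE 0.41) and rose in pericentral cells at 8 h (2.26, edgeR adjusted p = 0.00139) and 24 h (2.02, 0.00225), from 0.211 to 1.03 and 0.878 CPM. Wnt5a, a mainly non-canonical ligand, was lower in periportal cells at 8 h by log2 -1.36 (SE 0.34). Wnt5b, another such ligand, fell at 24 h in pericentral cells (log2 -0.76, edgeR adjusted p = 0.0263) and periportal cells (-0.81, 0.0217).

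Of 13 receptor genes tested, 5 rose (7.27% of all genes rose) and 0 fell (6.57%) in pericentral cells at 8 h, and 4 rose (10.8%) and 2 fell (11.1%) at 24 h. Without pericentral 24 h replicate 2 the 24 h counts were 2 and 1. The co-receptor Lrp5 was at 72.7 ± 6.64 CPM in fed, 139 ± 12.1 CPM in 8 h and 59.2 ± 19.9 CPM in 24 h pericentral libraries, and at 38.8 ± 3.59, 119 ± 9.61 and 43.4 ± 8.39 CPM in periportal ones. Lrp5 thus rose at 8 h in both zones, by log2 0.94 (SE 0.20, edgeR adjusted p = 0.00432) in pericentral and 1.62 (SE 0.20, 7.89e-05) in periportal cells, and fell again by 24 h (-1.23 and -1.45 from 8 h). The pericentral 8 h to 24 h fall had an edgeR adjusted p = 0.00144 and the periportal one 0.000664. The Frizzled receptor Fzd5 rose in pericentral cells at 8 h (log2 0.92, SE 0.25, edgeR adjusted p = 0.0213) and at 24 h (0.80, 0.0318). Another, Fzd6, rose in pericentral cells at 8 h (log2 1.34, edgeR adjusted p = 0.00154) and at 24 h (0.92, 0.0141), and Fzd7 fell at 24 h in pericentral (-0.91, 0.0153) and periportal cells (-1.10, 0.00640).

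The 13 genes for Wnt secretion, Dishevelled and the destruction complex had a median zone difference of log2 0.04 in fed mice, and 3 of them were called at 24 h against fed in each zone (23.1%, against 21.8% of all genes in pericentral and 19.6% in periportal cells). Amer1, an Apc-binding part of the complex, rose in pericentral cells at 8 h (log2 0.71, edgeR adjusted p = 0.0341), and its scaffold Axin1 rose in periportal cells at 8 h (0.48, 0.0276). Porcn, which attaches the lipid to Wnt proteins, rose in periportal cells at 24 h (0.68, edgeR adjusted p = 0.0392). Ctnnb1, which encodes beta-catenin itself and is named here after its values were seen, fell at 24 h by log2 -0.31 (SE 0.09, edgeR adjusted p = 0.0197) in pericentral and -0.40 (SE 0.09, 0.00392) in periportal cells. Gsk3a, a kinase of the destruction complex, rose at 24 h by 0.45 (edgeR adjusted p = 0.000506) and 0.24 (0.0338). Among 9 nuclear factors, the TCF genes were split between the zones. Tcf7 was lower in fed periportal cells (log2 -2.25, SE 0.39), and Tcf7l1, a TCF factor that often acts as a repressor, was higher (3.14, SE 0.35), as was the co-repressor Tle4 (1.59, SE 0.21). Tcf7l1 and Tle4 lay higher in all 9 periportal libraries than in all 9 pericentral ones, as Ctnnbip1 did. Both also rose in pericentral cells at 24 h, Tcf7l1 by 1.30 (edgeR adjusted p = 0.0151) and Tle4 by 0.86 (0.00860). The co-repressor Tle3 was lower in periportal cells at 24 h (-1.38, SE 0.26) and fell there between 8 h and 24 h (-0.94, edgeR adjusted p = 0.0387).

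Of 5 secreted or membrane inhibitors tested, Notum, a deacylase that inactivates Wnt proteins, was lower in periportal cells in fed mice (log2 -2.53, SE 0.33) and at 24 h (-1.84, SE 0.33). Its pericentral libraries (38.2 to 66.8 CPM) all lay above its periportal ones (6.50 to 17.6 CPM), those at 8 h included. Kremen1, a Dickkopf receptor, rose in periportal cells at 8 h (0.60, edgeR adjusted p = 0.0331) and 24 h (0.54, 0.0433). Of 6 other general targets, Tnfrsf19 was lower in fed periportal cells (-3.58, SE 0.53) and fell in pericentral cells at 8 h (-1.85, edgeR adjusted p = 0.0149) and 24 h (-1.65, 0.0198). Sox9 was higher in periportal cells in fed mice (0.88, SE 0.19) and at 24 h (1.21, SE 0.20), and also at 8 h. In pericentral cells Sox9 was called lower at 24 h than fed and than at 8 h (edgeR), and both calls stood without 24 h replicate 2. In periportal cells it was called higher at 8 h than fed and lower at 24 h than at 8 h. Prox1, a hepatocyte transcription factor, rose in pericentral cells (0.72 at 8 h, edgeR adjusted p = 0.0241, and 0.83 at 24 h, 0.00754) and in periportal cells (0.72, 0.0223, and 0.68, 0.0249). The 6 pericentral genes that depend on beta-catenin in hepatocytes had a median zone difference of log2 -3.87 in fed mice, a direction that the choice of list fixed. In pericentral cells their median log2 difference from fed was -0.27 at 8 h and -0.30 at 24 h, or 0.11 at 24 h without 24 h replicate 2. In either comparison 0 of the 6 were called (edgeR unadjusted p under 0.05 for 0 and 1). Of all genes 13.8% were called at 8 h and 21.8% at 24 h, so 0 of only 6 genes shows no lack of response.

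Counting all lists, 11 of the 57 pathway genes were called in pericentral cells at 8 h (9 up), 17 at 24 h (11 up) and 3 between 8 h and 24 h (1 up). These shares were 19.3%, 29.8% and 5.26%, against 13.8%, 21.8% and 9.71% of all genes. In periportal cells 7 were called at 8 h (all up), 11 at 24 h (7 up) and 3 between 8 h and 24 h (0 up). These shares were 12.3%, 19.3% and 5.26%, against 14.4%, 19.6% and 7.46% of all genes. The pericentral 24 h count was 11 without 24 h replicate 2. The calls lost without it (edgeR) were those of Fzd5 (log2 0.61, adjusted p = 0.142), Fzd6 (0.72, 0.0772), Ror1, a receptor for Wnt5a named here after its values were seen (-0.81, 0.0859), Ctnnb1 (-0.27, 0.0792), Tcf7l1 (1.01, 0.0816) and Tnfrsf19 (-1.32, 0.0779). Those of Wnt9a (1.74), Wnt5b (-0.86), Fzd7 (-0.95), Gsk3a (0.47), Tle4 (0.89) and Prox1 (0.63) stood, as did the fall of Lrp5 between 8 h and 24 h (-0.98). The 24 h zone differences without it were -1.47 for Tle3, -1.96 for Notum and 1.53 for Sox9. The pericentral 8 h count 6 without fed replicate 1 or 8 h replicate 2. The periportal 8 h count was 4 without fed replicate 1, fed replicate 2, 8 h replicate 1 or 8 h replicate 2. The periportal 24 h count was 4 without fed replicate 1, 5 without 24 h replicate 1, and 7 without 24 h replicate 2 or 3.

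**Figure D5:**
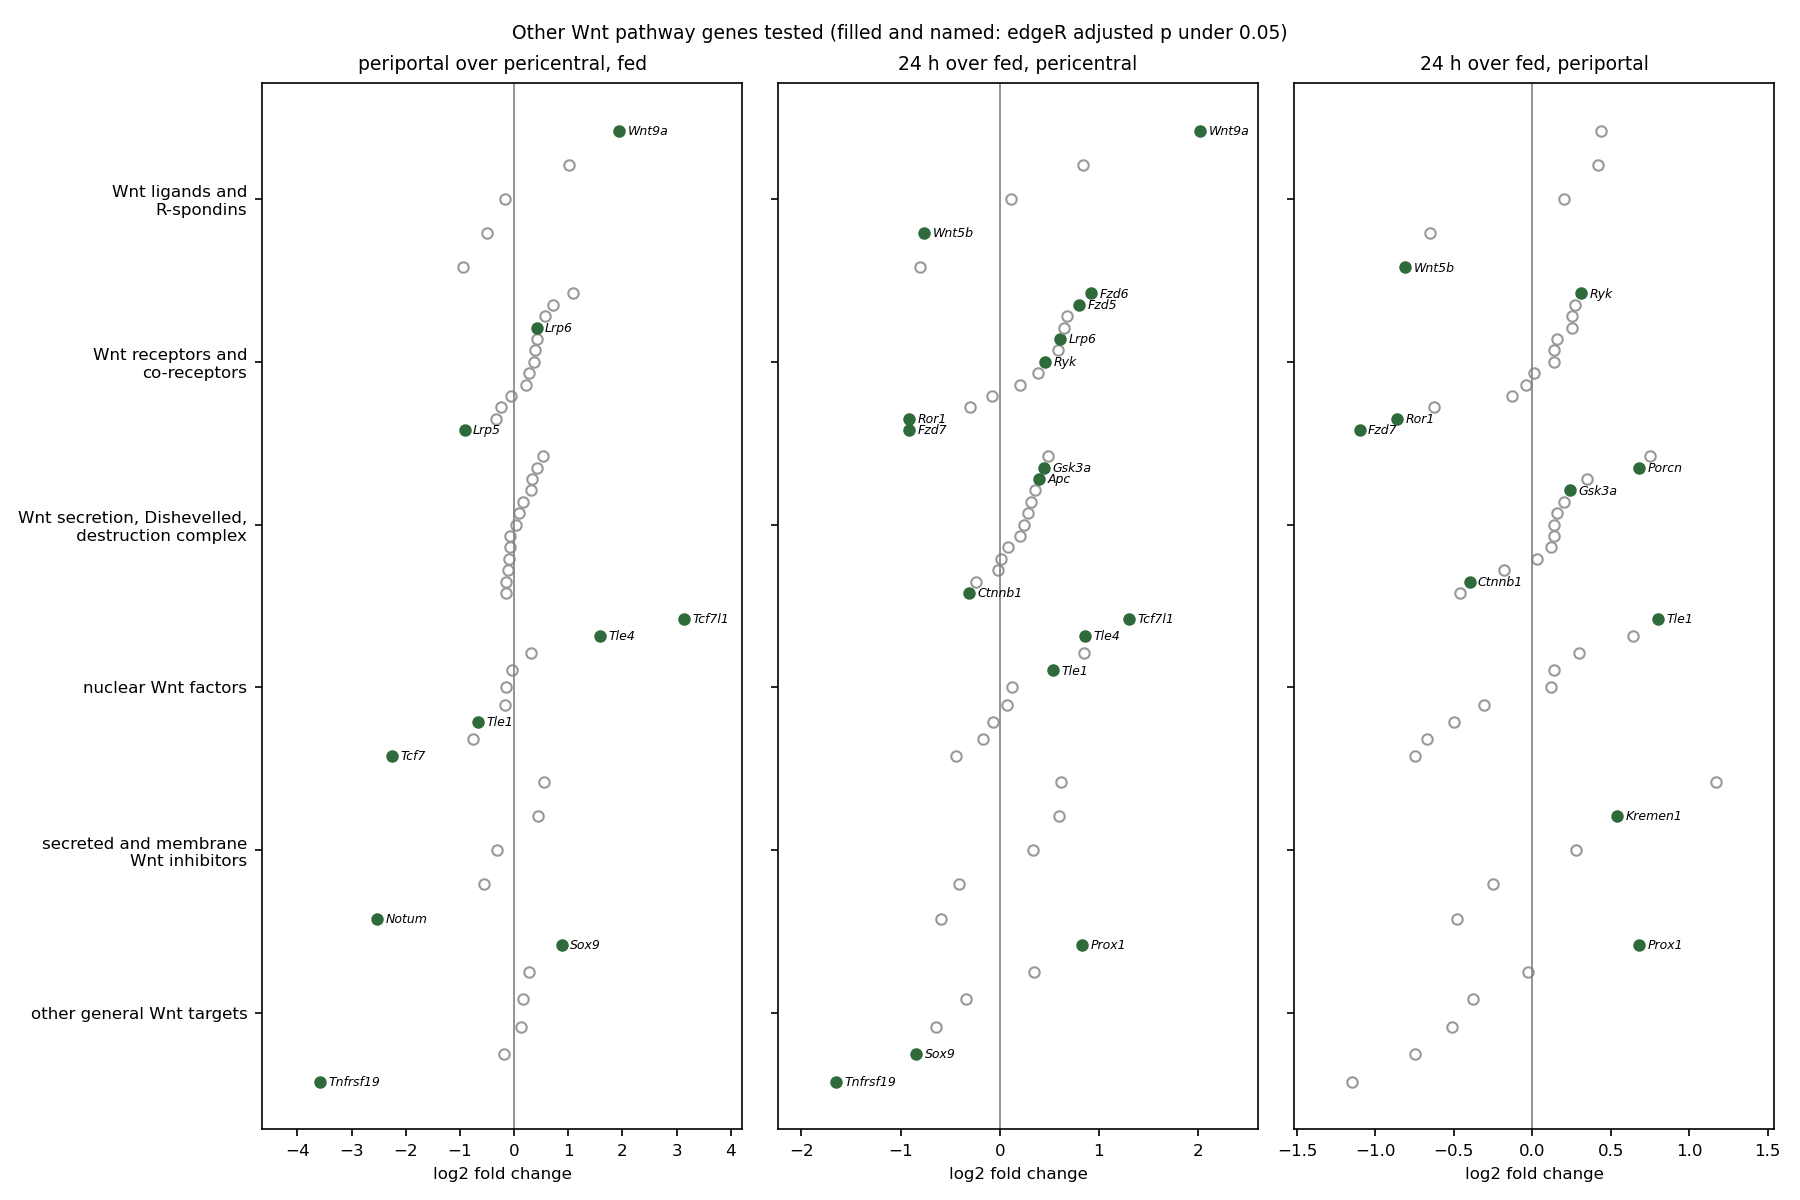
Log2 fold changes (x axes) of the tested genes of 6 Wnt pathway lists (y axis), between zones in fed mice and between 24 h and fed in each zone; filled, named points have an edgeR adjusted p under 0.05. Tcf7l1 (3.14) and Tnfrsf19 (-3.58) lie at the ends of the zone panel, and Ctnnb1 is filled to the left of 0 in both fasting panels.

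Genes whose levels ran most like those of 3 members over the 18 libraries were found by Pearson's r of log2 CPM among 8193 genes with a mean of at least 5 CPM. The libraries fall into the zone groups, so the value within zones is given too, and no test was made. Nearest to Axin2 were Gulo (r = 0.974, within zones 0.841), Avpr1a (0.972, 0.886), the vasopressin receptor of hepatocytes, and Susd4 (0.963, 0.760). Among those nearest to Lgr5 were Serpina7 (0.963, 0.657) and Slc1a2 (0.960, 0.661). Nearest to Ctnnbip1 were Uroc1 (0.987, 0.905), urocanase of histidine breakdown, Fgfr2 (0.982, 0.863) and Cyp2f2 (0.980, 0.844). Cyp2f2 ran from 132 to 793 CPM in pericentral and 1578 to 3075 CPM in periportal libraries.

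Some of these genes overlap others in the annotation. Axin2, Tbx3 and Ctnnbip1 overlap antisense genes (Gm11670, Tbx3os1 and Gm13066), and Lgr5 overlaps the coding gene A930009A15Rik on the other strand. Whether the counting used strand is not given in the sources used here, so reads of such pairs cannot be told apart if it did not. Znrf3, Sp5 and Lect2 overlap no other gene.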

How the data were processed

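RNA-seq libraries of 18 hepatocyte samples were used. The deposited values are estimated counts per gene; the submitters' processing notes name kallisto 0.46.0 and mm10, and the annotation and strand setting are not given in the sources used here. The expected counts deposited by the authors were rounded to whole numbers. Per library they summed to between 18359911 and 26384358. Genes were filtered with filterByExpr on the 6 groups and scaled by TMM. They were tested with edgeR's quasi-likelihood test (R 4.3.3, edgeR 4.0.16, limma 3.58.1), robust, with Benjamini-Hochberg adjustment over all 12477 genes and a threshold of 0.05. All 6 groups shared 1 fit. The fit was also run on simulated counts with the same spread for every gene, so that run does not cover genes with a wider spread.

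The members and lists were chosen with earlier results of these data known. All 10 members are named. From each pathway list at most 4 called genes with the largest log2 fold change and at least 1 CPM are named, with Wnt2, Wnt9b, Rspo3, Glul, Slc1a2, Cyp2e1 and Oat. Cyp1a2, Nr1i3 and Myc are named for pericentral 24 h replicate 2 only. Of 79 listed pathway genes, Rhbg and Tiki1 were not analysed here. The 3 genes most like Axin2, Lgr5 and Ctnnbip1 had a mean of at least 5 CPM, and 1 of those for Lgr5 is not reported here. Alternatives were DESeq2 size factors, TMM without the 20 most abundant genes, no filter beyond 1 count, a mean of at least 1 CPM, only the groups compared, a replicate block, DESeq2 1.42.0, limma-voom, and each library left out. Promoters are from RefSeq (GRCm38.p6), gene models from GENCODE M21. Intervals and floors (3 counts) cover counting error only.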

Additional observations from a re-analysis of the deposited data

Results flagged for a closer look

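The 67 tested members and pathway genes were searched in 3 comparisons of states. For 4 of these gene and comparison pairs every library of one zone moved one way and every library of the other zone the opposite way. Ctnnbip1 between 24 h and fed differed between zones by log2 -2.38 (pericentral 2.05, periportal -0.33), a difference given without a test because the gene may have been listed for it, and -1.91 without pericentral 24 h replicate 2. Dkk3, a Dickkopf family gene from the list of secreted and membrane inhibitors, differed by -1.18 between 8 h and fed (pericentral 0.79, periportal -0.39, edgeR interaction adjusted p = 0.909). Between 24 h and fed it differed by -1.08 (0.60 and -0.48, edgeR interaction adjusted p = 0.578). The Wnt co-receptor Lrp6 differed by -0.35 between 24 h and 8 h (pericentral 0.11, periportal -0.23), and this difference was not tested. Such opposite movement held for 0.337% of all 12477 genes between 8 h and fed, 0.681% between 24 h and fed and 0.353% between 24 h and 8 h, against 1, 2 and 1 of the 67. The count between 24 h and fed includes Ctnnbip1, which may have been listed for this difference, so nothing is read from it.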

How the results depend on the processing

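Fitting only the groups compared gave 6 members called in pericentral cells at 8 h against fed, 0 at 24 h against 8 h, 0 in periportal cells at 8 h and 1 at 24 h against fed, a median zone difference at 8 h of -3.19 and 5 pathway genes in periportal cells at 24 h. Without the filter the periportal member counts were 1 at 8 h and 0 at 24 h, with 7 pathway genes at 24 h. A mean of at least 1 CPM gave 1 member in periportal cells at 8 h, and limma-voom gave 1 at 8 h and 1 at 24 h. DESeq2 called 5 pathway genes between 24 h and 8 h in pericentral and 5 in periportal cells. In the periportal 8 h comparison and the 8 h zone difference, Nkd1 did not pass the filter with only the groups compared or with a mean of at least 1 CPM. It is absent from those counts and medians. No other cause of these shifts was tested. Leaving out 1 library at a time, the members called ranged from 1 to 3 (pericentral 8 h), 3 to 5 (24 h), 1 to 4 (24 h against 8 h), 0 to 2 (periportal 8 h), 0 to 2 (24 h) and 0 to 0 (24 h against 8 h). The median zone difference ranged from -3.13 to -2.53 fed, -3.31 to -2.37 at 8 h and -2.96 to -2.21 at 24 h, and the median difference between zones of the change from -0.27 to 0.06 at 8 h and -0.14 to 0.54 at 24 h, against -0.09 and 0.08 with all libraries. Pathway genes called between zones ranged from 15 to 17 fed, 12 to 16 at 8 h and 8 to 12 at 24 h. In pericentral cells they ranged from 6 to 12 at 8 h, 11 to 18 at 24 h and 2 to 3 at 24 h against 8 h, and in periportal cells from 4 to 7, 4 to 12 and 2 to 4.

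Of the single genes' comparisons of states, 13 values that were not called changed sign when 1 library was left out. Axin2 in periportal cells at 24 h against fed was -0.26, -0.07 and -0.02 without fed replicate 1, fed replicate 3 or 24 h replicate 2, and up to 0.83 without fed replicate 2. Lgr5 in periportal cells was 0.10 and 0.03 at 8 h (without fed replicate 1 or 8 h replicate 2; lowest -0.47), -0.20 and -0.20 at 24 h against fed (fed replicate 3 or 24 h replicate 1; highest 0.38) and -0.04 at 24 h against 8 h (24 h replicate 1), with 0.44 the highest. Tcf7l2 was 0.02 and 0.02 in pericentral cells at 24 h against 8 h (24 h replicate 1 or 3, lowest -0.17) and -0.06 and -0.11 in periportal cells at 8 h (fed replicate 1 or 8 h replicate 1, highest 0.13). Lect2 in periportal cells at 8 h was 0.43 without fed replicate 2 and -0.70 at the lowest. Untested differences changed sign too. The difference between zones of the 24 h change went to 0.15 for Nkd1 (without pericentral 24 h replicate 1), as low as -0.17 for Lect2 and as low as -0.19 for Rnf43, and that of the 8 h change as low as -0.03 for Lect2 and -0.28 for Rnf43. The 24 h zone difference of Tcf7l2 went to -0.02.

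Replicate numbers were shared between groups. Deviations of same-numbered libraries from their group means had r = 0.12, 0.17 and 0.15 in the zone comparison at 24 h. There the replicate block gave a median of -2.44 and 10 pathway genes. In the other 8 comparisons r ran from -0.12 to 0.21 and was not above 0.1 for every replicate number. No correlation was computed between libraries with different numbers, and the labels give no pairing. These values therefore cannot decide whether same-numbered libraries belong together in any comparison. With the replicate block the members called were 2, 4 and 3 in pericentral cells (8 h, 24 h, 24 h against 8 h) and 2, 2 and 0 in periportal cells, the same counts as without it. The blocked median zone differences were -2.69, -2.68 and -2.44, the median differences between zones of the change -0.09 and 0.08, and the pathway counts 18, 17 and 10 between zones, 12, 18 and 2 in pericentral cells and 8, 11 and 3 in periportal cells. Low counts limit Nkd1, Sp5 and periportal Lgr5.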
